A study of Mus musculus with 7 samples.

Results

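The genes of oxidative phosphorylation were followed in single oligodendrocyte lineage cells of the adult mouse cortex, as a set of 97 of the 27998 genes in the table. The set was chosen by gene symbol alone. It holds the 13 genes with the prefix mt-, all encoded on mitochondrial DNA, and 84 nuclear genes named Ndufa, Ndufb, Ndufc, Ndufs or Ndufv (complex I), Sdha to Sdhd (complex II), Uqcr (complex III), Cox4 to Cox8 (complex IV) and Atp5 (complex V). Because the name is the only criterion, a few members such as Cox8c are isoforms of other tissues, and Cox8c had no UMI (unique molecular identifier, 1 per captured RNA molecule) in any library. Complexes were also assigned by name. Ndufa4, since assigned to complex IV, is thus counted in complex I, and Atp5sl and Atp5s, now named Dmac2 and Dmac2l, in complex V.

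There was 1 library for each of 3 conditions, all from neocortex at P90. Control dOLCs, dorsally derived oligodendrocyte lineage cells, were the TdTom+ cells of Emx1-Cre:Sox10-GFP-TdTom mice, and control vOLCs, ventrally derived cells, were the GFP+ cells of the same genotype. Ectopic vOLCs were the GFP+ cells of mice that carried Sox10-GFP-DTA beside Emx1-Cre and Sox10-GFP-tdTom, in which Cre, expressed from the Emx1 locus of dorsal forebrain progenitors, turns on diphtheria toxin A in dorsally derived Sox10+ cells, so that ventrally derived cells occupy the dorsal cortex. All 3 libraries come from mice on a C57BL/6 and B6CBA background, and all carry Emx1-Cre. Cells of pooled mice cannot be told apart within a library, so no test across animals was possible: a difference between libraries may be a difference of condition, of the sorted colour or of the library itself, and these cannot be told apart. Every interval given below is a 95% interval that covers counting error only.

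The libraries kept 5804, 925 and 2562 cells (control dOLCs first, then control vOLCs, then ectopic vOLCs, an order used for every set of 3 values below), with medians of 3489.5, 5022 and 5318.5 UMIs per cell. The authors' cluster names were used: OPC (oligodendrocyte precursor cells), COP/NFOL/MFOLa (committed precursors, newly formed and first myelin-forming cells), MFOLb (later myelin-forming cells) and the mature oligodendrocytes MOL1, MOL2a, MOL2b and MOL5/6a to MOL5/6d. The OPC comparisons rest on 853, 121 and 330 cells and the MOL5/6 comparisons on 3777, 561 and 1842. The summed level of OPC markers was 8885, 11208 and 8933 CPM (UMIs per 1000000 UMIs of the cells summed) in OPCs and 132, 71.2 and 56.7 CPM in MOL5/6, and that of mature oligodendrocyte markers was 58548, 64277 and 65873 CPM in MOL5/6, so OPCs and mature cells were told apart by their markers. The mature cluster names were less sharp: in control vOLCs the MOL2 markers stood at 191 CPM in the 6 MOL2b cells and 221 CPM in MOL1, and the MOL5/6 markers at 53520.2 CPM in MOL1 and 38501 to 48142 CPM in MOL5/6b to d. In control dOLCs and ectopic vOLCs the MOL2 markers were higher in MOL2b (430 and 319 CPM) than in MOL1 (117 and 69.5 CPM). Their MOL5/6 markers stood at 36566 and 46872 CPM in MOL1, within the ranges of 34183 to 52732 and 34858 to 55988 CPM in MOL5/6a to d. In OPCs the mature oligodendrocyte markers stood at 10915, 4829 and 4881 CPM, higher in control dOLCs than in the other two libraries. The summed markers of other cell types in MOL5/6 were 29.4, 17.1 and 20.1 CPM for neurons (8 genes), 269.8, 242 and 228 CPM for astrocytes (7 genes) and 31.4, 35.6 and 29.9 CPM for microglia (7 genes, of which P2ry12 and Tmem119 were at 0). In OPCs they were 1139, 1309.8 and 1224 CPM for neurons, 1006, 1087 and 1029.8 CPM for astrocytes and 78.5, 109 and 79.0 CPM for microglia. Among the kept cells 39 barcode sequences occurred in more than 1 library.

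Oxidative phosphorylation makes ATP in the inner mitochondrial membrane. Complexes I and II feed electrons from NADH and succinate to ubiquinone, complex III passes them to cytochrome c, complex IV hands them to oxygen, and complex V (ATP synthase) uses the proton gradient that results. Mitochondrial DNA encodes core subunits of complexes I, III, IV and V, its strands are each read as a long transcript that is cut into single RNAs, and all other subunits, with the whole of complex II, come from the nucleus. In oligodendrocytes mitochondria serve lipid synthesis for myelin and the support of axons, and mature cells are known to lean on glycolysis as well.

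The members on mitochondrial DNA lie nearly end to end, which matters for how their RNA is counted. Of the 13 genes, 12 are on the + strand and 1, mt-Nd6, is on the - strand (GRCm38, GENCODE vM21). Of the 3 genes called higher in control vOLCs than in control dOLCs in both cell types below, mt-Atp8 and mt-Nd4l share their 3′ end with the start of the next gene, within 1 RNA that carries both reading frames, and they are shown for that reason. In the sequences below, 5′ to 3′ on the + strand, capitals mark the bases shared with the next gene. mt-Atp8, an ATP synthase subunit, lies at chrM:7766-7969 and shares 43 bases (chrM:7927-7969) with mt-Atp6. mt-Nd4l, a complex I subunit, lies at chrM:9877-10173 and shares 7 bases (chrM:10167-10173) with mt-Nd4.
mt-Atp8: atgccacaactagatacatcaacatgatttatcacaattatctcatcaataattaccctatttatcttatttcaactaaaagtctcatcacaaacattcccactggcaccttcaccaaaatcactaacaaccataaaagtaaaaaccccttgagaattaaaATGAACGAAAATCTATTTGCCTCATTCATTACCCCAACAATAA
mt-Nd4l: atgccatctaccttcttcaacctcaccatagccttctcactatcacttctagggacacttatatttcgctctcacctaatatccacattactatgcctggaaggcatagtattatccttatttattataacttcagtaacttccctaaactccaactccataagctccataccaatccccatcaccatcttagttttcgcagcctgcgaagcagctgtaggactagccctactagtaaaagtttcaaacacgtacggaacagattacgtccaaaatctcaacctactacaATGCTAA

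The mitochondrial-encoded genes took a much larger part of the RNA counted than the nuclear-encoded ones, and that share varied more between clusters than between conditions. Over all kept cells they took 6.22%, 6.56% and 6.07% of UMIs, and the nuclear members took 1.96%, 1.71% and 2.13%. Cells over 15% mitochondrial UMIs, or outside 200 to 3000 genes, had been removed by the authors, and over all deposited barcodes the shares were 6.02%, 6.45% and 5.78% for mitochondrial and 1.99%, 1.76% and 2.20% for nuclear members. The range across conditions within 1 cluster was narrower than the range across clusters of 1 library. The lowest mitochondrial share was in MOL2b in each library, with 3.76%, 4.07% and 4.11%, and the highest was in MOL5/6b, with 8.59%, 8.34% and 10.2%. OPCs were near the low end with 4.53%, 4.70% and 4.25%, and MOL5/6d was as well with 4.15%, 4.25% and 4.59%. The widest range across conditions was in MOL5/6a, with 6.79%, 6.61% and 8.67%. MOL1 had 7.37%, 8.15% and 6.24%, MOL2a 7.25%, 6.47% and 7.59%, and the COP/NFOL/MFOLa cells 5.86%, 5.64% and 6.91%. The MOL2b value of control vOLCs comes from 6 cells and its MFOLb value of 8.30% from 8 cells.

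**Figure D1:**
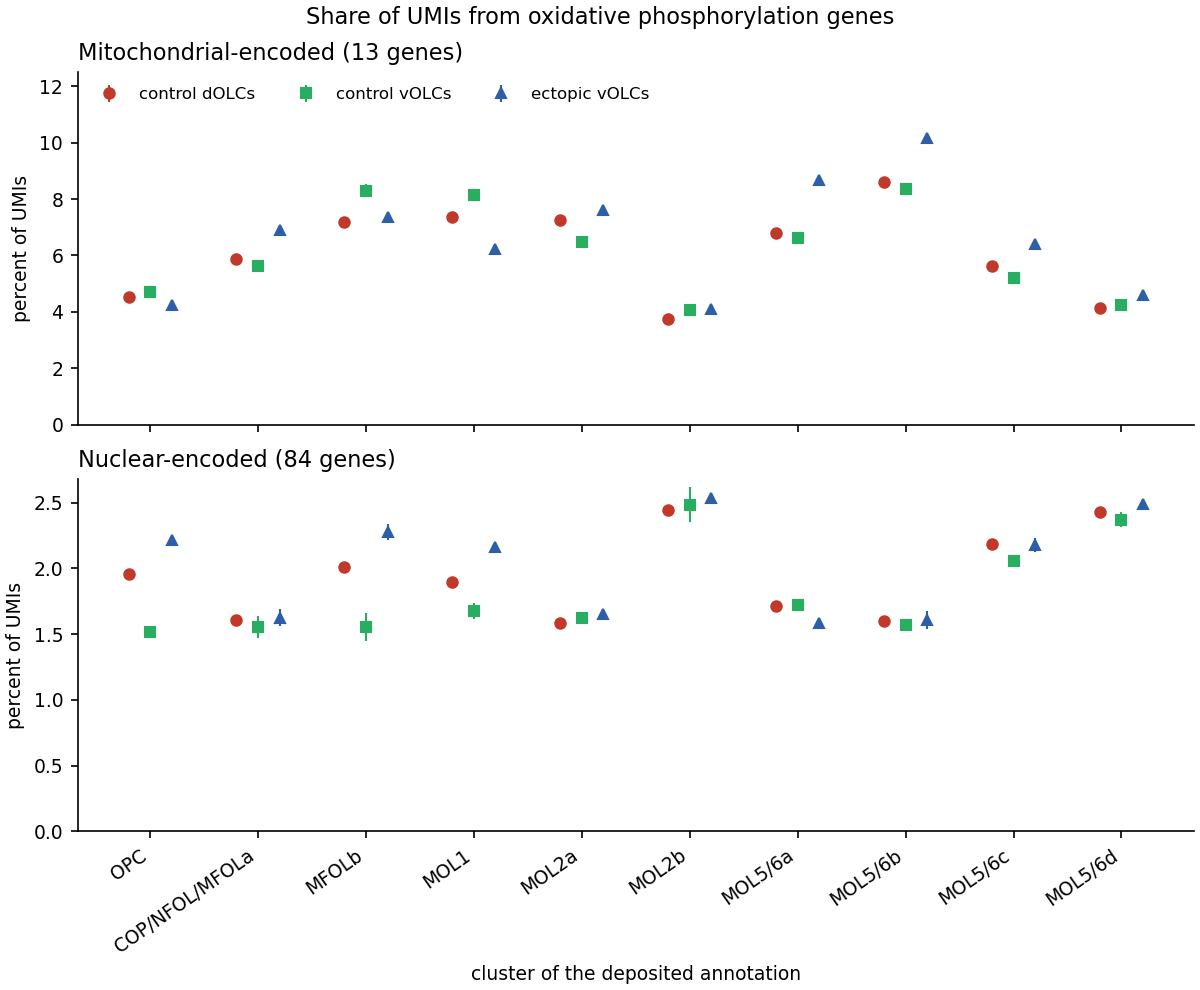
Percent of all UMIs from the 13 mitochondrial-encoded genes (one panel) and the 84 nuclear-encoded members (other panel), by cluster and library, with 95% counting intervals as bars. MOL2b is lowest for the mitochondrial share and highest for the nuclear share in each of the 3 libraries, and MOL5/6b is highest for the mitochondrial share.

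Nuclear members did not follow the mitochondrial ones across clusters. Their share was highest in MOL2b, with 2.45%, 2.48% and 2.54%, where the mitochondrial share was lowest. Among the MOL5/6 subclusters it was 1.72%, 1.72% and 1.58% in a, 1.60%, 1.57% and 1.61% in b, 2.19%, 2.05% and 2.18% in c, and 2.43%, 2.37% and 2.49% in d. So the subclusters a and b, high in mitochondrial RNA by share, were low in nuclear oxidative phosphorylation RNA, and c and d the reverse. Per nuclear UMI there were 5.38, 5.31 and 6.32 mitochondrial UMIs in MOL5/6b, against 1.71, 1.79 and 1.84 in MOL5/6d.

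Among the MOL5/6 subclusters the number of mitochondrial UMIs per cell varied much less than the share. In control dOLCs the mean was 272 UMIs per cell in MOL5/6a, 260.3 in b, 250.0 in c and 254 in d, while the mean of all UMIs per cell was 4012, 3030, 4447 and 6111. In control vOLCs it was 372, 339, 354 and 324 against totals of 5622, 4066, 6807 and 7635, and in ectopic vOLCs 394, 336, 327 and 331 against 4541, 3307, 5092 and 7200. Thus in control dOLCs MOL5/6d held about as many mitochondrial molecules per cell as MOL5/6b within a total that was much larger. The nuclear members went with the total, from 48.4, 63.9 and 53.1 UMIs per cell in b to 149, 181 and 179 in d. Over all clusters the number varied more. OPCs had fewer mitochondrial UMIs per cell, with means of 139, 153 and 155 against totals of 3078, 3262 and 3643, and in control dOLCs MFOLb cells had 339 and COP/NFOL/MFOLa cells 384. Across single MOL5/6 cells of 1 library, which differ in depth, the mitochondrial share ran against the total UMIs (Spearman's rho -0.73, -0.67 and -0.70 over 3777, 561 and 1842 cells) and against the nuclear share (-0.60, -0.48 and -0.71). Within each subcluster the first relation was weaker, at -0.28, -0.40 and -0.38 in a, -0.52, -0.60 and -0.30 in b, -0.55, -0.45 and -0.61 in c and -0.22, -0.14 and -0.07 in d. Within MOL5/6d the second relation was weak and of the other sign (0.07, 0.19 and 0.15). All of these shares are parts of the same totals, so the correlations are descriptions.

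**Figure D2:**
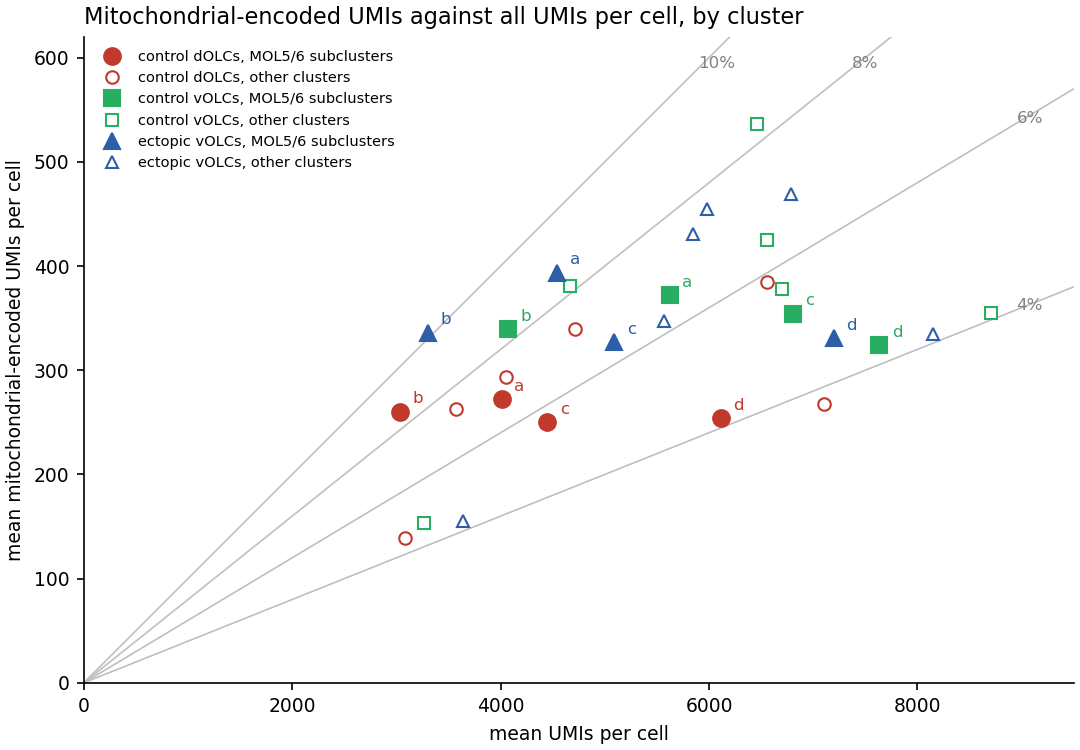
Mean mitochondrial-encoded UMIs per cell (y axis) against mean total UMIs per cell (x axis) for each cluster and library, with grey lines of equal share at 4, 6, 8 and 10%. The lettered MOL5/6 subclusters of 1 library lie at similar heights across a wide range of totals (250.0 to 272 mitochondrial UMIs in control dOLCs), and OPCs lie lower, at 139 to 155.

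Each condition was then compared with each other within MOL5/6 and within OPCs, from UMIs summed over cells and scaled to CPM. A gene was read where both libraries together held at least 50 UMIs and at least 10% of the cells of one had a UMI, and it was called where the log2 ratio was at least 0.5 in size with an interval that left out 0. Of the 84 nuclear members, 74 passed this filter in at least 1 comparison and 10 passed it in none of those over MOL5/6 as a whole or OPCs, and of the 13 mitochondrial members 12 or 13 passed. A member can pass the filter through the library where it is high. The 3 comparisons share libraries and are not independent of each other.

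In MOL5/6 the ectopic vOLCs and control dOLCs had near-equal levels of the mitochondrial-encoded genes. For ectopic vOLCs over control dOLCs the median log2 ratio was 0.02 over 12 members, 6 of which were above 0, and none was called, beside 2.05% of all 5218 genes called higher and 14.8% called lower. The all-gene median was -0.03. Single members moved both ways by small amounts that exceeded counting error. mt-Nd2, a complex I subunit, was at 2932, 3613 and 3535 CPM, with a log2 ratio of 0.27 (0.25 to 0.29) for ectopic vOLCs over control dOLCs. mt-Co3, a core subunit of cytochrome c oxidase, was at 14281, 13465 and 12045 CPM, with a log2 ratio of -0.25 (-0.26 to -0.24). The ratio of mt-Nd2 for this pair was above 0 with its interval in all 10 clusters, from 0.17 to 0.69, while that of mt-Co3 was above 0 in 3 of 10. For 6 further core subunits the 3 values were as follows. mt-Co1 was at 8172, 8240 and 7543 CPM, mt-Co2 at 6755, 6625 and 6316, mt-Cytb (cytochrome b of complex III) at 6596, 6677 and 6506, mt-Nd1 at 6737, 6971 and 6515, mt-Nd4 at 3661, 3694 and 3798, and mt-Atp6 at 14721, 15750 and 14665 CPM. None of these was called in any of the 3 comparisons in MOL5/6.

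That near-equality in MOL5/6 as a whole did not hold within its subclusters. Of the MOL5/6 cells of control dOLCs, 8.82% were MOL5/6a, 51.5% b, 24.6% c and 15.1% d, and in ectopic vOLCs 48.9% were a, 2.28% b, 3.42% c and 45.4% d. In control vOLCs the shares were 42.2%, 42.1%, 9.45% and 6.24%. Within each of the 4, the summed mitochondrial-encoded UMIs of ectopic vOLCs were above those of control dOLCs, by a log2 ratio of 0.35 (0.34 to 0.36) in a, 0.24 (0.22 to 0.27) in b, 0.19 (0.17 to 0.21) in c and 0.15 (0.14 to 0.15) in d. The members' medians there were 0.44, 0.25, 0.26 and 0.21, with 12, 12, 11 and 11 of 12 above 0, beside all-gene medians of -0.11, -0.08, -0.02 and -0.05. Against control vOLCs the summed ratios were 0.39, 0.28, 0.30 and 0.11. With the 4 subclusters weighted equally the median for ectopic vOLCs over control dOLCs was 0.32, where the value over all MOL5/6 cells was 0.02, and over control vOLCs it turned from -0.13 to 0.23. The nuclear members stayed near 0 within subclusters, with medians of -0.10, -0.01, -0.02 and 0.03 against control dOLCs and -0.13, 0.04, 0.07 and 0.09 against control vOLCs. In the other mature clusters the summed ratio for ectopic vOLCs over control dOLCs was also above 0 in MOL2a, at 0.067 (0.053 to 0.081), and MOL2b, at 0.13 (0.11 to 0.15), and was below 0 in MOL1, at -0.24 (-0.26 to -0.22).

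A few mitochondrial RNAs were higher in control vOLCs than in control dOLCs. In MOL5/6, 4 of 13 members were called higher, where 3.62% of all genes were called higher and 1.75% lower, and in OPCs 4 of 12 were, where 8.49% were called higher and 9.53% lower. mt-Atp8, whose sequence is given above, was at 210, 408 and 246 CPM in MOL5/6 and at 146, 324 and 171 CPM in OPCs. Control vOLCs were thus the highest of the 3 in both cell types, with log2 ratios over control dOLCs of 0.96 (0.86 to 1.05) and 1.15 (0.85 to 1.44). mt-Nd4l was at 235, 390 and 246 CPM in MOL5/6 and 188, 291 and 183 CPM in OPCs. Its ratio of control vOLCs to control dOLCs was 0.73 (0.63 to 0.83) in MOL5/6 and 0.63 (0.33 to 0.93) in OPCs. mt-Nd3, another small complex I subunit, was at 989, 1638 and 1186 CPM in MOL5/6 and 637, 1082 and 730.3 CPM in OPCs, with ratios of 0.73 (0.68 to 0.78) and 0.76 (0.61 to 0.92). For these 3 genes the ratio was above 0 with its interval in 10 of 10 clusters, with medians over clusters of 1.03, 0.74 and 0.69. mt-Nd6, the only - strand gene, was at 22.3, 32.9 and 14.8 CPM in MOL5/6, a ratio of 0.56 (0.22 to 0.89). It is the remaining 1 of the 4 calls in MOL5/6, but it passed the filter only through control vOLCs, the library where it was highest, so its call carries no weight. In OPCs mt-Nd6 had 49, 12 and 19 UMIs and did not pass the filter. The remaining call in OPCs was mt-Nd5, a long RNA for a core subunit of complex I, at 271, 400.3 and 289 CPM, a ratio of 0.56 (0.30 to 0.81) that became 0.49 under TMM factors, below the call limit. In MOL5/6 mt-Nd5 was at 316, 420.2 and 351 CPM, a ratio of 0.41 (0.32 to 0.50) that was under the call limit, and over clusters its ratio was above 0 in 10 of 10 and above 0 with its interval in 8, with a median of 0.42. The genes that share an RNA with mt-Atp8 and mt-Nd4l had smaller differences: mt-Atp6 was at 15750 CPM in control vOLCs against 14721 in control dOLCs, and mt-Nd4 at 3694 against 3661. Over the 13 mitochondrial members in MOL5/6 the ratio of control vOLCs to control dOLCs ran against transcript length (Spearman's rho -0.58 across genes, which are not replicates), and over 12 in OPCs it was -0.49, whereas over all genes rho was -0.07 and 0.22. It ran more strongly against the members' UMI count in control dOLCs, which is also the denominator of the ratio, with rho of -0.81 in MOL5/6 and -0.69 in OPCs, so the members with higher ratios were those with fewer UMIs as well as those with shorter transcripts.

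Between ectopic and control vOLCs the calls fell on mt-Nd6, mt-Atp8, mt-Nd4l and mt-Nd3. In MOL5/6 3 of 13 mitochondrial members were called lower for ectopic over control vOLCs, with log2 ratios of -1.16 for mt-Nd6, -0.73 for mt-Atp8 and -0.67 for mt-Nd4l, and none was higher, beside 15.8% of all genes lower and 2.57% higher. mt-Nd6 again passed the filter only through control vOLCs, so its call carries no weight. Without it the calls of mt-Atp8 and mt-Nd4l are a count near the share of all genes called lower. The member median was -0.13 and the all-gene median -0.02. In OPCs mt-Atp8 (-0.93), mt-Nd4l (-0.67) and mt-Nd3 (-0.57) were lower, where 7.81% of all genes were, and mt-Nd3 was no longer called under TMM factors. Between ectopic vOLCs and control dOLCs none of the 12 mitochondrial members was called in OPCs, with a median of -0.04, where 7.64% of all genes were called higher and 6.99% lower.

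**Figure D3:**
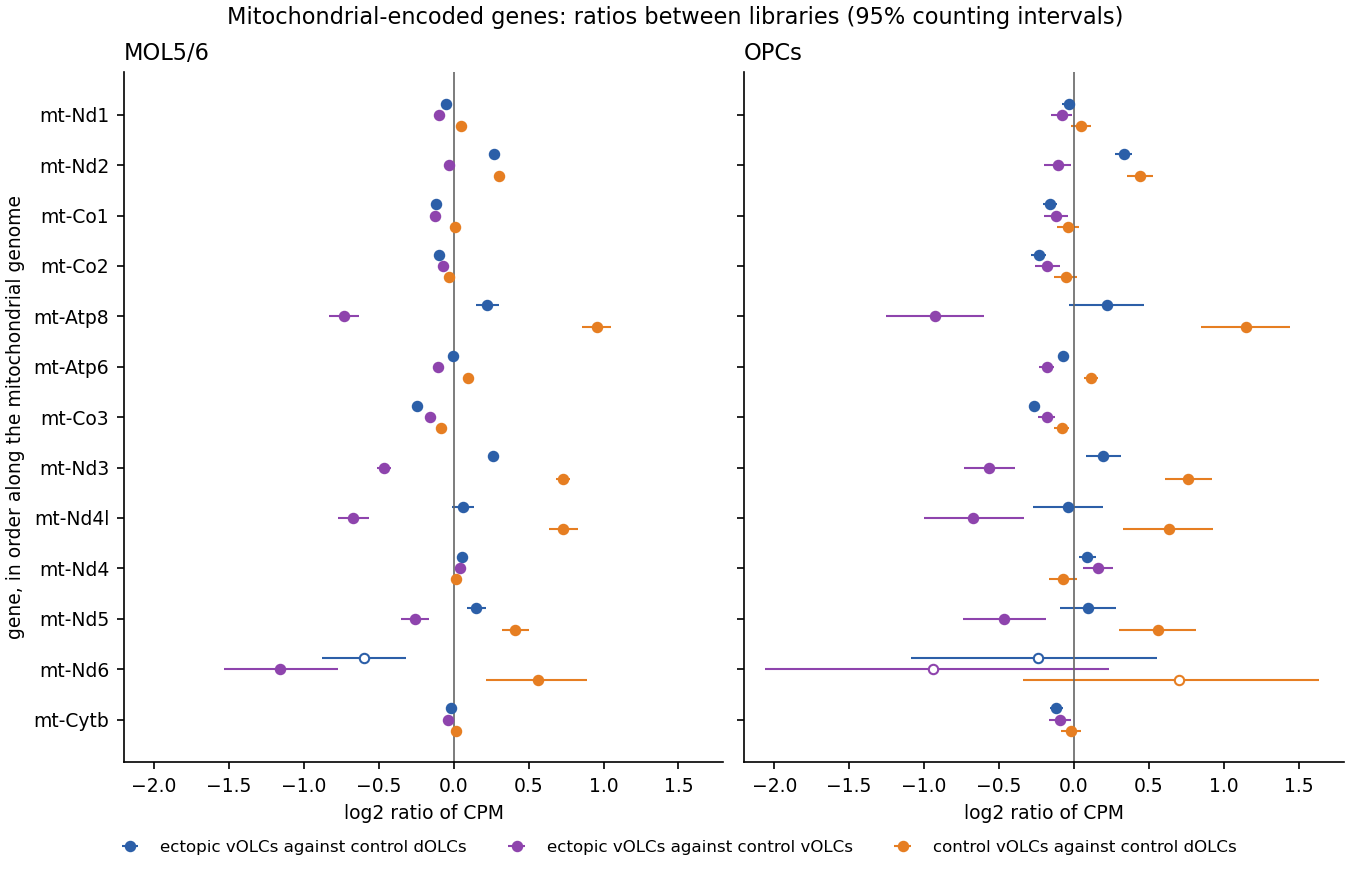
Log2 ratio of CPM for the 13 mitochondrial-encoded genes in genome order, for the 3 comparisons of conditions, in MOL5/6 and in OPCs. Bars are 95% counting intervals and open points mark genes under the filter. mt-Atp8, mt-Nd3 and mt-Nd4l reach 0.63 to 1.15 for control vOLCs over control dOLCs while mt-Co2, mt-Atp6, mt-Co3 and mt-Nd4 lie near 0.

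The nuclear-encoded members differed little between ectopic vOLCs and control dOLCs in mature cells. In MOL5/6, 62 of 74 were above 0, but the median log2 ratio was 0.11, and 1 of 74, Sdhd, was called higher, where 2.05% of all genes were called higher and 14.8% lower, a count near the background. The medians were 0.11 for complex I, 0.18 for complex II, 0.05 for complex III, 0.14 for complex IV and 0.11 for complex V, so no complex stood apart. Sdhd, a membrane anchor of succinate dehydrogenase, was at 44.2, 58.9 and 67.6 CPM in MOL5/6, with a ratio of 0.61 (0.46 to 0.77). In OPCs Sdhd was at 63.2, 96.3 and 90.7 CPM, and it was called higher there as well, at 0.52 (0.16 to 0.88). Control dOLCs were the lowest of the 3 libraries for Sdhd in both cell types. The other anchor, Sdhc, was level in MOL5/6 at 107, 104 and 113 CPM. Within the other complexes the highest and lowest ratios were below the call limit. Ndufa1, an accessory subunit of complex I, was at 82.2, 105 and 112 CPM, with a ratio of 0.45 for ectopic vOLCs over control dOLCs, and Ndufb7, another one, at 305, 239 and 272 CPM, with a ratio of -0.17. Uqcrfs1, the Rieske iron-sulphur protein of complex III, was at 128, 133 and 158 CPM, a ratio of 0.30. Cox5b was at 366, 287 and 341 CPM, and Atp5k at 274, 261 and 260 CPM. Atp5f1, the b subunit of the ATP synthase stalk, was at 249, 286 and 326 CPM, a ratio of 0.39 (0.32 to 0.46).

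Against control vOLCs nearly all nuclear members of ectopic vOLCs had ratios above 0, mostly small. In MOL5/6 70 of 74 were above 0, with a median of 0.25 beside an all-gene median of -0.02, and 3 of 74 were called higher, where 2.57% of all genes were, a count near the background. Within the subclusters the medians were those given above, with 16 of 74 above 0 in MOL5/6a, and with equal weight of the 4 the median was 0.016. Cox6c, a complex IV subunit, was at 689, 577 and 859 CPM, a ratio of 0.57 (0.50 to 0.65) for ectopic over control vOLCs. The other two, Ndufb4 of complex I (0.53) and Uqcrh of complex III (0.54), were picked out after their values were seen. Between control vOLCs and control dOLCs 57 of 74 were below 0, with a median of -0.12, and Uqcrq (-0.57) and Uqcrh (-0.53) were called lower, a count near the 1.75% of all genes called lower (3.62% were called higher). Uqcrq, a small subunit of complex III, was at 327, 220 and 299 CPM, so control vOLCs were the lowest. Scaling mattered here. With TMM factors the median of all genes moved by 0.17 for ectopic vOLCs against control dOLCs and by 0.15 against control vOLCs, the nuclear members called higher went from 1 to 5 of 74 and from 3 to 19 of 74, where under the same factors 7.40% and 8.73% of all genes were called higher, and the share of all called genes that were higher went from 12.1% to 45.5% and from 14.0% to 46.0%.

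**Figure D4:**
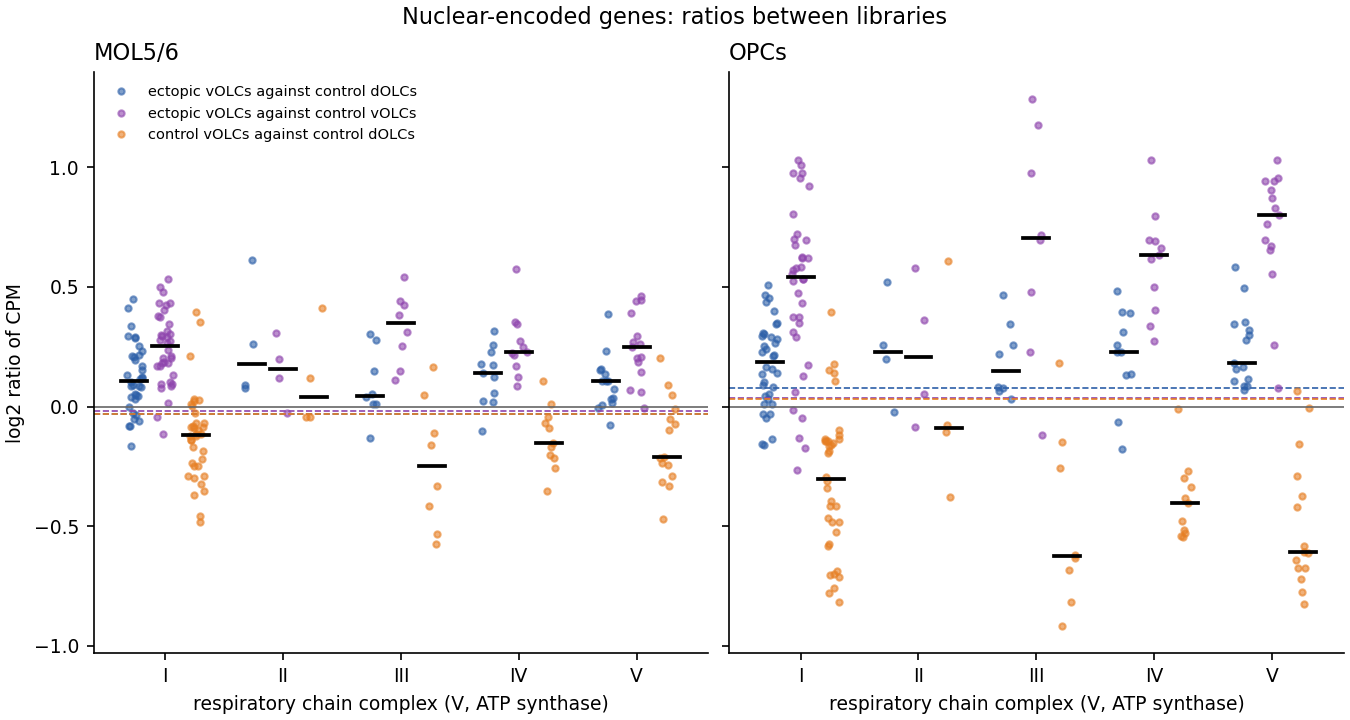
Log2 ratio of CPM of each nuclear-encoded member past the filter, by respiratory complex I to V, for the 3 comparisons in MOL5/6 and in OPCs. Black bars are the complex medians and dashed lines the medians of all genes tested. In OPCs the ectopic over control vOLC medians reach 0.54 to 0.80 for complexes I, III, IV and V and 0.21 for complex II.

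In OPCs the largest difference in nuclear members by CPM was between the libraries of GFP+ cells. That order did not hold once the ratios of genes of like length were subtracted, as given below. For ectopic over control vOLCs the median log2 ratio was 0.62 beside an all-gene median of 0.04, 67 of 74 were above 0 and 47 were called higher (none lower), where 13.7% of all genes were called higher and 7.81% lower. By complex, 21 of 36 members of complex I, 1 of 4 of complex II, 5 of 8 of complex III, 7 of 11 of complex IV and 13 of 15 of complex V were called higher, with medians of 0.54, 0.21, 0.71, 0.63 and 0.80. Uqcrq was at 249, 132 and 298 CPM, a ratio of 1.18 (0.75 to 1.63). Uqcrb, a further small subunit of complex III, picked out after its values were seen, was at 268, 152 and 371 CPM, a ratio of 1.29 (0.90 to 1.70). For both, control vOLCs held the lowest of the 3 values.

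In the third comparison, 28 of the nuclear members were called lower and 1 higher in control vOLC OPCs than in those of control dOLCs, where 9.53% of all genes were called lower and 8.49% higher. The median was -0.39 beside 0.03 for all genes, with 66 of 74 below 0. The lower members were 10 of complex I, 5 of complex III, 4 of complex IV and 9 of complex V, and none of complex II. The 1 higher was Sdhd, at 0.61 (0.06 to 1.12), and it was no longer called under TMM factors. Between ectopic vOLCs and control dOLCs the median was 0.21, 65 were above 0 and 3 were called higher, where 7.64% of all genes were higher and 6.99% lower. Beside Sdhd these were Atp5c1, the central stalk subunit of ATP synthase, at 176, 144 and 265 CPM (0.58, interval 0.37 to 0.79), and Ndufs8, an iron-sulphur subunit of complex I, at 130.3, 114 and 185 CPM (0.51, interval 0.26 to 0.76), which was no longer called with median of ratios factors.

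The nuclear members have short transcripts, with a median of 731 bases against 2011 for the genes of the table, and in these libraries short genes as a whole moved. Over all genes the ratio of ectopic to control vOLCs in OPCs ran against transcript length (Spearman's rho -0.41 across genes), and that of control vOLCs to control dOLCs ran with it (0.22). For ectopic vOLCs over control dOLCs in OPCs rho was -0.35. In MOL5/6 rho was -0.52 for ectopic vOLCs over control dOLCs, -0.52 over control vOLCs and -0.07 for control vOLCs over control dOLCs. After the median ratio of genes of like length was subtracted, the OPC median of ectopic over control vOLCs was 0.06 in place of 0.62, that of control vOLCs over control dOLCs was -0.13 in place of -0.39, and that of ectopic vOLCs over control dOLCs was 0.01 in place of 0.21. In MOL5/6 the 3 medians, in the order ectopic vOLCs over control dOLCs, ectopic over control vOLCs and control vOLCs over control dOLCs, became 0.03, 0.10 and -0.06. The part of transcript length in these differences was not otherwise tested. The control vOLC OPCs also had the highest summed level of Malat1 and Neat1, RNAs that stay in the nucleus, at 117799 CPM against 111423 in control dOLCs and 103491 in ectopic vOLCs, and the lowest level of early-response and heat shock genes, at 1490 CPM against 2062 and 2067. Their part in the result was not tested. In MOL5/6 the Malat1 and Neat1 levels were 93383, 86191 and 95440 CPM, with control vOLCs the lowest.

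Along the lineage, mitochondrial-encoded RNA was lower by CPM in OPCs than in MOL5/6. The median log2 ratio of OPCs to MOL5/6 was -0.45, -0.42 and -0.49 in the 3 libraries, where the all-gene medians were 0.36, 0.27 and 0.58. This holds for MOL5/6 as a whole: MOL5/6d, at 4.15% and 4.25% of UMIs in the control libraries, lay below their OPCs at 4.53% and 4.70%, and MOL2b lay lower still. All 12 members past the filter in each library were below 0 in all 3, and 5 were called lower in all 3, beside 14.8% of all 5293 genes called lower and 30.8% called higher in all 3. These 5 were mt-Co1, mt-Co2 and mt-Co3, which are the mitochondrial subunits of complex IV, with mt-Atp6 and mt-Nd3. mt-Co1, the catalytic subunit, was at 4675, 4552 and 4190 CPM in OPCs against 8172, 8240 and 7543 in MOL5/6, log2 ratios of -0.81, -0.86 and -0.85. By complex the medians were -0.66, -0.69 and -0.80 for complex IV, -0.55, -0.45 and -0.59 for complex V, -0.34, -0.38 and -0.34 for complex I and -0.35, -0.39 and -0.45 for complex III, whose only member is mt-Cytb.

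The nuclear members differed less between OPCs and MOL5/6 when read by CPM. Their median was 0.01, -0.20 and 0.13. In control vOLCs 55 of 74 were below 0, with 19 called lower and 4 higher, where 20.2% of all genes were called lower and 36.3% higher. Of 74 past the filter 18 were above 0 and 25 below 0 in all 3 libraries. None was called lower in all 3, and Ndufa4 and Ndufa9 were called higher in all 3, which is 2 of 74 where 30.8% of all genes were and 14.8% were lower. The nuclear medians also lay below the all-gene medians of 0.36, 0.27 and 0.58. Ndufa4, named as a complex I subunit and since assigned to complex IV, was at 643, 481 and 781 CPM in OPCs against 359, 337 and 415 in MOL5/6, log2 ratios of 0.84, 0.52 and 0.91. Ndufa9, an accessory subunit of complex I, was at 102, 134 and 130 CPM in OPCs against 71.6, 72.9 and 82.7 in MOL5/6, ratios of 0.51, 0.88 and 0.65. These directions depend on scaling. TMM factors, which are computed after the most extreme genes are trimmed, moved the ratio of all genes by -0.66, -0.71 and -0.90. With them 12 of 12, 12 of 13 and 12 of 12 mitochondrial members and 47, 57 and 64 of 74 nuclear members were called lower in OPCs, where 41.4%, 41.2% and 42.8% of all genes were. Under TMM factors Ndufa9 became -0.15 in control dOLCs and Ndufa4 -0.19 in control vOLCs, and the share of all called genes that were higher went from 70.8%, 64.3% and 77.2% to 35.8%, 30.0% and 36.3%.

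**Figure D5:**
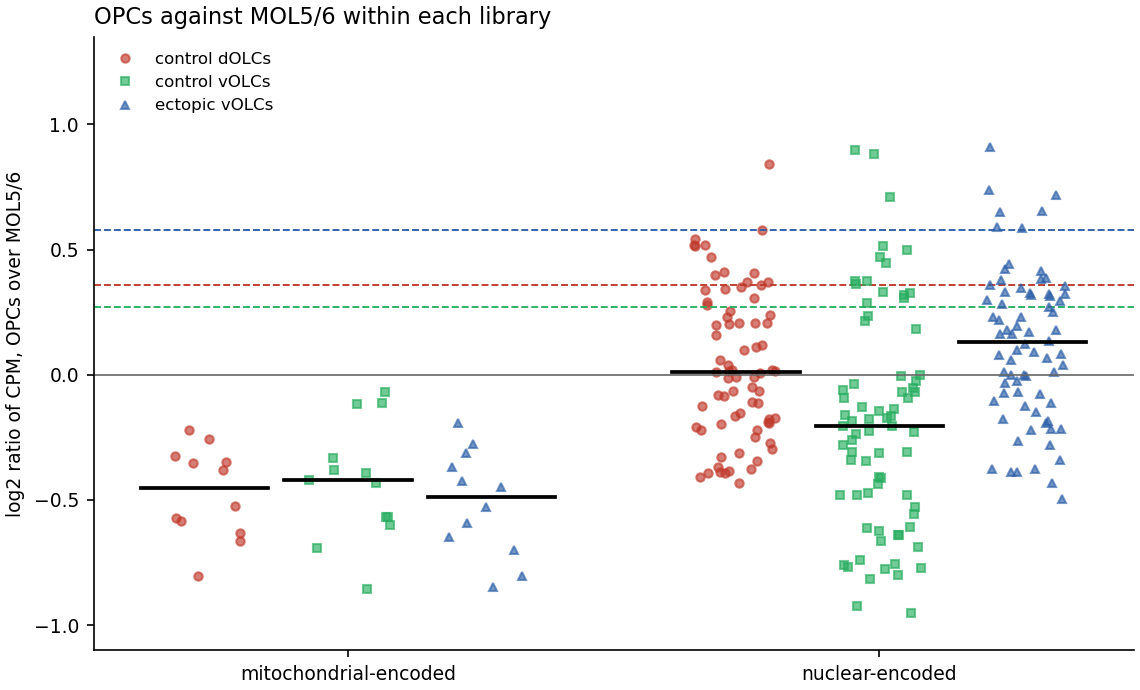
Log2 ratio of CPM of OPCs over MOL5/6 for each member past the filter, in each library, for mitochondrial-encoded and nuclear-encoded genes. Black bars are medians and dashed lines the medians of all genes. The mitochondrial medians are -0.45, -0.42 and -0.49 and the nuclear ones 0.01, -0.20 and 0.13.

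Several subunits have isoforms for particular tissues, and in these cells the isoform known as the general one carried the UMIs. Cox4i1 was at 1112, 966 and 1129 CPM in MOL5/6 and 905, 633 and 801 CPM in OPCs, while Cox4i2, the lung and hypoxia isoform, had 5, 1 and 0 UMIs over all kept cells. For Cox4i2 a count of 0 in ectopic vOLCs allows up to 0.21 CPM. The heart and muscle isoforms Cox6a2 (10, 1 and 2 UMIs), Cox7a1 (57, 10 and 33) and Cox8b (1, 0 and 0) had few UMIs, as did Ndufa4l2 with 2, 1 and 0. The testis isoforms were mixed: Cox8c had none, Cox7b2 had 20, 5 and 8 UMIs and Cox6b2 had 266, 40 and 172. Their general partners Cox6a1, Cox7a2 and Cox8a were at 572, 390 and 585 CPM in MOL5/6 of control dOLCs. Cox6b1, Cox7b and Cox7a2l were at 363, 139 and 179 CPM there. The ATP synthase ring subunit c is made from 3 genes. In MOL5/6 Atp5g1 was at 286, 246 and 293 CPM, Atp5g2 at 311, 300.01 and 345 CPM and Atp5g3 at 93.5, 96.6 and 101 CPM, and none was called in MOL5/6. The members Atp5sl, with 406, 69 and 248 UMIs, and Atp5s, with 203, 36 and 142, passed the filter in no comparison of MOL5/6 as a whole or of OPCs.

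Some counts may be shared with near-identical genes. Within the last 500 bases, 6 members matched another gene of the table at 95% identity or more over at least 100 bases: Atp5h, Atp5l, Atp5o, Cox5b, Ndufb2 and Ndufb8. The largest count of such a partner was for Atp5h, with 7169, 1133 and 5378 UMIs in MOL5/6 against 245, 144 and 234 for Gm10250, and Cox5b had 5430, 837 and 3603 against 140, 82 and 93 for Gm11273. The values of these members are uncertain for this reason, by an amount that was not measured.

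Promoters were read because nuclear members moved together in OPCs. Of the nuclear members 69 had a promoter in RefSeq (GRCm38.p6, 250 bases before to 50 after the start). The core of the site of NRF1, a known activator of respiratory genes, searched as CGCATGCG, which reads the same on both strands, was in 9 of the 69 (13.04%) and in 559 of 27025 gene promoters (2.07%). The ETS core CCGGAAG, searched on both strands, was in 16 of 69 (23.2%) against 9.93% of all. Atp5k and Cox6a1 are shown as members with values in this report that carry the NRF1 core, in capitals, in a promoter on the - strand. Atp5k encodes the e subunit of ATP synthase (chr5:108434350-108434649) and Cox6a1 a complex IV subunit (chr5:115348909-115349208).
Atp5k: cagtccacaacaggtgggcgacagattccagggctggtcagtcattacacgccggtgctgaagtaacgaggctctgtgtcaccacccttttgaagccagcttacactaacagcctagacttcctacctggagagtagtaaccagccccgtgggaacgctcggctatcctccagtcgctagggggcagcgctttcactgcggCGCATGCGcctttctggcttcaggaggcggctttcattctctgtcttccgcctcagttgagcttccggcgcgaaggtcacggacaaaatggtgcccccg
Cox6a1: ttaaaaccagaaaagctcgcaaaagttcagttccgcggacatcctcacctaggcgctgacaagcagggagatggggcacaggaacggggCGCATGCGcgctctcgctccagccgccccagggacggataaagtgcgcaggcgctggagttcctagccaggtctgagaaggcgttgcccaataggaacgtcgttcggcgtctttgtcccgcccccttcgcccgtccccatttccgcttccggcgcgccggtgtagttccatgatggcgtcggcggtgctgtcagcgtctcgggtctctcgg
The ratio of ectopic to control vOLCs in OPCs had a median of 0.72 over the 9 members with the core and 0.62 over the 54 without it that passed the filter, and that of control vOLCs to control dOLCs was -0.48 and -0.36. For ectopic vOLCs over control dOLCs in OPCs the medians were 0.23 and 0.21. In MOL5/6 the members with the core lay nearer 0. The medians there were 0.20 and 0.26, -0.097 and -0.12, and 0.05 and 0.11, for the comparisons in the same order. A match in letters is not a bound site.

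Other genes of mitochondrial energy metabolism were read from lists. In MOL5/6 between ectopic vOLCs and control dOLCs, 1 of 13 Krebs cycle enzymes past the filter was called lower and 1 of 24 assembly factors higher, and of 67 mitochondrial ribosome genes none was called, where 14.8% of all genes were called lower and 2.05% higher. The Krebs cycle gene was Ogdh, the E1 subunit of oxoglutarate dehydrogenase (-0.64), and the assembly factor was Uqcc1, which acts in making complex III (0.61). Ogdh was no longer called under TMM factors. Among the electron, ADP/ATP and phosphate carriers and porins, none of 8 was called. Cycs, cytochrome c, was at 135, 131 and 175 CPM, Slc25a4, an ADP/ATP carrier, at 792, 792 and 877 CPM, and the ratios of Slc25a5, another ADP/ATP carrier, and Vdac2, a porin, were 0.40 and 0.49. Of 2 biogenesis regulators past the filter 1 was called lower. It was Hif1a, the oxygen-sensitive transcription factor, at -0.53, and it was no longer called under TMM factors. Mrpl48 and Mrpl28, proteins of the mitochondrial ribosome, had ratios of 0.45 and -0.35.

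In OPCs the lists differed from each other in the comparisons with control vOLCs. For ectopic over control vOLCs, 16 of 65 mitochondrial ribosome genes, 10 of 28 assembly factors, 4 of 8 carriers and porins and 1 of 13 Krebs cycle enzymes were called higher and none lower, where 13.7% of all genes were called higher and 7.81% lower, so the Krebs cycle count was no larger than the background. The medians were 0.44, 0.35, 0.35 and 0.049. For control vOLCs over control dOLCs 8 of 61, 4 of 25, 1 of 8 and 0 of 13 were called lower, where 9.53% of all genes were, and the ribosome and carrier counts were near that share. The medians were -0.18, -0.14, -0.12 and 0.11. The biogenesis regulators, with 4 past the filter, had medians of -0.19 and 0.46 in these comparisons and none called, and the genes of mitochondrial DNA and RNA upkeep, with 5 past the filter, had 0.18 and -0.11, with 1 called higher in the first. For ectopic vOLCs over control dOLCs the medians of ribosome genes, assembly factors, carriers and Krebs cycle enzymes were more alike, at 0.22, 0.25, 0.16 and 0.22. There 8 of 69, 4 of 27, 0 of 8 and 2 of 14 were called higher and none lower. Of all genes 7.64% were called higher and 6.99% lower. Among carriers and regulators, 3 named genes were called higher in OPCs than in MOL5/6 in each library, where 30.8% of all genes were: Slc25a5 by 0.85, 0.87 and 0.64, Tfam, which packages and transcribes mitochondrial DNA, by 0.77, 1.00 and 0.86, and Hif1a by 1.34, 1.12 and 1.52 on the log2 scale. Under TMM factors Slc25a5 was at 0.18, 0.16 and -0.26, Tfam at 0.11, 0.29 and -0.04 and Hif1a at 0.67, 0.41 and 0.63, so that the first 2 were under the call limit in each library and Hif1a was in control vOLCs. Ppargc1a, the coactivator PGC-1 alpha of mitochondrial biogenesis, was at 33.9, 48.1 and 36.6 CPM in OPCs and 1.08, 0.34 and 0.95 CPM in MOL5/6. It had 16, 1 and 10 UMIs in MOL5/6 and passed the filter only through OPCs.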

How the data were processed

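Single-cell libraries (10x 3′ chemistry) of 3 conditions were analysed. The deposited table holds UMI counts per gene symbol before the cell filter, from reads aligned to mm10; per the submitters' processing notes Cell Ranger 2.1.1 and Seurat 3 and 4.0 were used. The annotation deposited by the authors gave each cell's library, cluster name, UMI counts and mitochondrial percent. Of 10081 barcodes, 9291 passed the authors' limits (15% mitochondrial UMIs, 200 and 3000 genes). Samples of P0 were not analysed here, and 6 columns of per-cell values were not used.

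UMIs were summed per library and cell type (OPC without cycling cells; MOL5/6 as a to d) and scaled to CPM, since cells are not replicates. Log2 ratios of 2 sums have conditional exact binomial 95% intervals. With 1 library per condition no p-value is given. Members and lists were chosen with earlier results of these data known. Genes were named by rule: all 13 mitochondrial members, the members of each complex with the lowest and highest ratio of ectopic vOLCs to control dOLCs in MOL5/6, members called the same way against both controls in MOL5/6 or in OPCs, members called in all 3 libraries between OPCs and MOL5/6, tissue isoforms, and from each list the extreme genes and fixed regulators. Esrra and Nrf1 were among these and were mostly under the filter. Scripts were tested on simulated data. Scrublet, run on all deposited barcodes, marked 16 of the 9291 kept cells, 14 of them in control vOLCs. None was removed, and the 6% with the highest scores were left out as an alternative. Python 3.11.15, numpy 2.4.6, scipy 1.17.1, pandas 2.3.3, scanpy 1.11.5, blastn 2.17.0, R 4.3.3 and edgeR 4.0.16 (TMM factors only) were used. Alternatives were TMM and median of ratios factors, totals without mitochondrial UMIs, no filter, mean CPM over cells, cells thinned to 1000 UMIs, a 10% mitochondrial limit and equal weight of subclusters. Transcript lengths came from GENCODE vM21. Sequences were copied from GENCODE vM21 transcripts and RefSeq promoters.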

Additional observations from a re-analysis of the deposited data

Results flagged for a closer look

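For 3 nuclear members the same contrast gave log2 ratios of opposite sign in MOL5/6 and in OPCs, each with a counting interval that left out 0. The difference between the cell types was not tested, since each condition had 1 library. Uqcrq, a small subunit of complex III, had a ratio of ectopic vOLCs to control dOLCs of -0.13 (-0.20 to -0.07) in MOL5/6 and 0.26 (0.07 to 0.45) in OPCs. With TMM and median of ratios factors its MOL5/6 ratio was 0.039 and 0.055, so that the opposite sign was lost. Atp5f1, the b subunit of ATP synthase, had a ratio of control vOLCs to control dOLCs of 0.20 (0.09 to 0.31) in MOL5/6 and -0.37 (-0.69 to -0.07) in OPCs. For Cox6a1, a complex IV subunit, the ratio of control vOLCs to control dOLCs was 0.11 (0.03 to 0.18) in MOL5/6 and -0.27 (-0.53 to -0.02) in OPCs. None of these 6 ratios reached the call limit of 0.5 in size. The OPC ratios rest on 358 UMIs in ectopic vOLCs and 654 in control dOLCs for Uqcrq, and on 98 in control vOLCs and 844 in control dOLCs for Atp5f1 and 143 and 1145 for Cox6a1.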

How the results depend on the processing

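No paired analysis was possible because there was 1 library for each condition, and the labels give no shared replicate numbers. Of 168 set medians recomputed under the alternatives, 128 stayed within a range set by the spread between member genes. Another 33 moved beyond it and 7 reversed. In all, 17 of the 168 had the other sign. That range is not counting error and can be wide. With genes of like length subtracted, the OPC mitochondrial median of control vOLCs over control dOLCs went from 0.08 to 0.46. This was within its range of -0.06 to 0.63. Of 2954 single-gene values 2250 stayed within the spread set by counting, 687 moved and 17 called ones reversed, and 210 in all had the other sign. Of 132 summed ratios of the sets 39 stayed, 93 moved and 16 had the other sign, and all 12 shares of UMIs moved. All values here are log2 ratios, and unless a value shows it the cause was not tested.

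With the 4 MOL5/6 subclusters weighted equally, the mitochondrial median was 0.32 (ectopic vOLCs over control dOLCs), 0.23 (over control vOLCs, reversed from -0.13) and 0.0019 (control vOLCs over control dOLCs), and the nuclear median -0.050 (reversed from 0.11), 0.016 and -0.068. With TMM and median of ratios factors the nuclear MOL5/6 medians were 0.28 and 0.29 for ectopic vOLCs over control dOLCs and 0.40 and 0.41 over control vOLCs, and the mitochondrial one over control vOLCs reversed to 0.020 and 0.033. Thinning cells gave nuclear medians of 0.20 in MOL5/6 and 0.40 in OPCs for ectopic over control vOLCs, and the mean over cells 0.51 in OPCs.

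Subtracting genes of like length, an alternative chosen after seeing the data, gave nuclear medians of 0.030, 0.097 and -0.058 in MOL5/6 and 0.010, 0.061 and -0.13 in OPCs, and mitochondrial medians in OPCs of -0.25 (from -0.04) for ectopic vOLCs over control dOLCs and -0.61 (from -0.18) over control vOLCs. The other mitochondrial medians became 0.46 (from 0.08) in OPCs for control vOLCs over control dOLCs and, in MOL5/6, -0.063 (from 0.02), -0.30 (from -0.13) and 0.26 (from 0.10).

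For OPCs over MOL5/6, TMM and median of ratios factors gave mitochondrial medians of -1.12 and -1.12 in control dOLCs, -1.13 and -1.12 in control vOLCs and -1.38 and -1.39 in ectopic vOLCs, and nuclear medians of -0.65 and -0.65, -0.91 and -0.90, and -0.77 and -0.78, the last pair reversed from 0.13. The 10% mitochondrial limit gave -0.31 for mitochondrial members in control dOLCs, thinning -0.11 for nuclear members in control vOLCs, and the length subtraction -0.74 for mitochondrial members in ectopic vOLCs and, for nuclear ones, -0.00038 in control vOLCs and -0.13 in ectopic vOLCs. Under the same factors these genes reversed: in control dOLCs Ndufa9 (-0.15 and -0.15) and Sdhd (-0.15 and -0.15); in control vOLCs Ndufa4 (-0.19 and -0.18); in ectopic vOLCs Ndufa9 (-0.25 and -0.26), Atp5g3 (-0.31 and -0.32), Slc25a5 (-0.26 and -0.27), Tfam (-0.038 and -0.047) and Uqcc1 (-0.15 and -0.16). Atp5g1 in control vOLCs reversed when thinned, to 0.081.

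The control vOLC library, with 121 OPCs and 8 MFOLb cells, limits the precision of every comparison that uses it.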
